A study of Homo sapiens with 4 samples.

Results

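The genes described here encode the machinery that builds ribosomes in the nucleolus, with MYC as their main transcriptional regulator. They were taken by symbol: 50 named genes, and every gene of the table whose symbol begins with POLR1 or UTP and that is not a pseudogene. This gave 68 genes among 39635 entries, made up of 49 of the 50 named symbols, 8 POLR1 genes and 11 UTP genes. BOP1 was not analysed here. The cells were BEAS-2B, an established human bronchial epithelial line, grown in N2B27 medium, and RNA was selected for polyadenylated tails. Of the 4 libraries, 2 came from cells carrying a control shRNA (short hairpin RNA) and 2 from cells carrying an shRNA against Fer, a cytoplasmic tyrosine kinase. Replicates are numbered but not said to be separate cultures, so p-values here reflect only the variation between these 4 libraries, which may be technical.

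Ribosome production begins with RNA polymerase I, which copies ribosomal DNA into a long precursor RNA. Small nucleolar ribonucleoproteins of the C/D and H/ACA kinds then guide its methylation and pseudouridylation, while the small-subunit processome, late 40S factors and 60S assembly factors cut, fold and export the subunits. MYC binds the sequence CACGTG, called an E-box, near many of these genes, and their output is known to follow growth signals. Nucleoli enlarge in cells that grow and divide quickly.

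Library totals ran from 21422976 to 25169713 counts. FER itself was at 16.3 and 21.2 CPM in control, against 17.8 and 20.1 under the Fer knockdown label, a log2 fold change of 0.02 ± 0.17 (SE) by the quasi-likelihood test of edgeR, adjusted p = 0.976. The mRNA of the target thus did not bear out its label, and every fold change below compares the Fer knockdown label with control. Values in CPM are counts scaled to a common depth with TMM factors. Mitochondrial chromosome counts made up 16.9% and 19.4% of the control libraries and 9.62% and 9.37% of those labelled Fer knockdown. Of 8 epithelial markers 7 were tested, with KRT8 at 2094 and 1602 against 1826 and 1848 CPM (control against Fer knockdown label), and KRT5 had 3 to 12 counts per library. The 6 blood cell markers had 0 to 8 counts per library, with CD3E and HBB at 0 in all 4. Of 8 fibroblast markers 4 were tested and 0 passed in edgeR, with VIM and COL1A1 below 0 and COL3A1 and PDGFRB above. VIM was at 1455 and 1256 against 903 and 896 CPM (log2 fold change -0.59, edgeR adjusted p = 0.0549) and COL1A1 at 76.9 and 81.2 against 56.7 and 58.0 CPM (-0.46, edgeR adjusted p = 0.112). DESeq2 called both (adjusted p = 0.00238 and 0.0431), and limma-voom called VIM (adjusted p = 0.0473). Over all genes DESeq2 called 3.78% and limma-voom 1.16%. COL3A1 had 10 and 5 counts in control and 26 and 20 under the Fer knockdown label (log2 fold change 1.39, edgeR adjusted p = 0.248), and PDGFRB was at 0.01 (edgeR adjusted p = 0.985). PDGFRA had 3 and 1 against 10 and 7 counts, COL1A2 had 0 to 3 per library, and DCN and LUM were at 0 in all 4. The epithelial KRT7 and CDH1 were at -0.40 and 0.45 (edgeR adjusted p = 0.169 and 0.239). The endothelial VWF and CDH5 had 6 to 25 and 14 to 38 counts per library. The part of these markers in the results below was not tested. These are bulk samples of a single cell line, in which fewer cells expressing a gene and less RNA per cell cannot be told apart.

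The E-box was common near the starts of these genes. In RefSeq promoter windows (build GRCh38.p14, from 250 bases before to 50 bases after a start, 300 bases), 58 of the 68 genes had an entry, and 22 of the 58 (37.9%) held CACGTG in at least 1 window. The motif equals its own reverse complement, so each match counts for both strands. The share was 8.77% over all 27305 symbols of the promoter table and 12.2% over the 11547 symbols that were also tested here. It was 9 of 18 in the small-subunit processome, 5 of 14 in 60S assembly and 2 of 11 in the polymerase I machinery. Of 26 matches, 21 began within 50 bases of a start. A match describes letters and is no evidence of binding. The following stretches of 30 bases show the match nearest to a start, in capitals, for genes described below, read 5′ to 3′ on the gene's strand.
FBL, chr19:39846356-39846385, minus strand: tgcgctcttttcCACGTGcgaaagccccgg
NOP10, chr15:34343130-34343159, minus strand: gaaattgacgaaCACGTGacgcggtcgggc
GAR1, chr4:109815781-109815810, plus strand: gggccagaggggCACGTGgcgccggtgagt
DDX21, chr10:68956604-68956633, plus strand: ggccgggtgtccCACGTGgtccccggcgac
POLR1G, chr19:45406620-45406649, plus strand: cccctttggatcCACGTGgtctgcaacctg
RRP9, chr3:51941892-51941921, minus strand: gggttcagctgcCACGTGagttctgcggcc
UTP4, chr16:69132621-69132650, plus strand: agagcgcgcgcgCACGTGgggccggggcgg
LTV1, chr6:143843354-143843383, plus strand: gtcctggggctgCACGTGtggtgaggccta
GNL3, chr3:52686026-52686055, plus strand: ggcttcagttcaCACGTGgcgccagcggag
The capitals begin at base 7 from the start in FBL, at base 29 from it in LTV1, and 5 bases before it in RRP9. In UTP4 they begin 16 bases before the start and in DDX21 31 bases before it. The flanking letters differ from gene to gene, and NOP10 holds another match, 170 bases before the start. The 22 genes with the motif had a median log2 fold change of -0.13 (9 positive, 13 negative), and the 35 tested genes without it had 0.01 (18 positive, 17 negative).

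No ribosome biogenesis gene passed the test. Of the 67 genes tested, 0 had an adjusted p under 0.05 in edgeR, against 99 of all 15336 genes (0.646%). The 0 calls of each role group below are to be read against the same share. DESeq2 called 0 of them against 3.78% of all genes, and limma-voom 0 against 1.16%. At an unadjusted p under 0.05, 12 of the 67 genes (17.9%) stood out in edgeR, against 17.7% of all genes, and 3 of these were higher (8.95% of all genes) and 9 lower (8.77% of all genes). The median log2 fold change was -0.01 over the 67 genes and 0.01 over all tested genes, with 32 positive and 35 negative. The middle of the distribution was narrow, from a lower quartile of -0.21 to an upper quartile of 0.14, against -0.19 and 0.23 for all genes. Scaling by library totals alone moved the median of the 67 genes to 0.15 and that of all genes to 0.18, so medians given below under that scaling are to be read against 0.18. UTP14C, a retrogene copy, had 0 counts in all 4 libraries, which allows up to 0.140 CPM by counting error, and 74.2% of its exonic bases overlap ALG11.

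**Figure D1:**
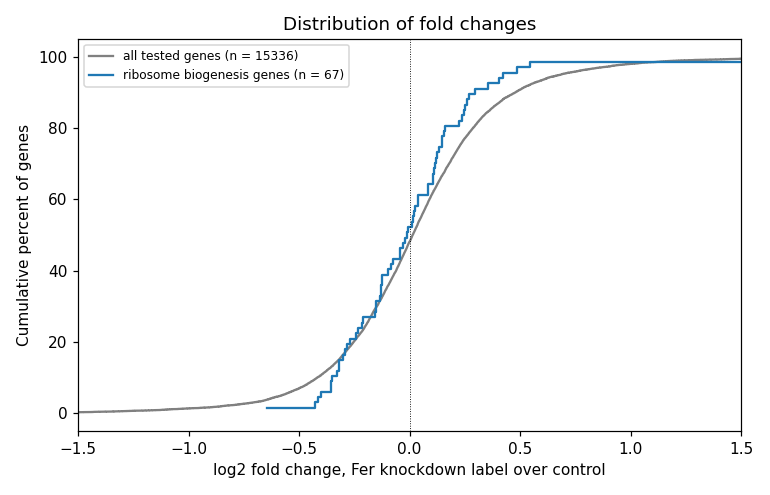
Cumulative percent of genes (vertical axis) at or below each log2 fold change (horizontal axis, Fer knockdown label over control) for the 67 tested ribosome biogenesis genes (blue) and all 15336 tested genes (grey). Both curves cross 0 near their middle, with medians of -0.01 and 0.01, and POLR1H at 2.90 lies off the axis.

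In the reported fit most of these changes had an interval within 2-fold. The unadjusted 95% interval of the fold change lay within 2-fold in either direction for 63 of the 67 genes (94.0%, against 75.6% of all tested genes) and within 1.5-fold for 45 (67.2%, against 42.7%). The intervals do not cover the choice of scaling or of control library. Of the 67 genes, 82.1% lay above the median level per length of all tested genes, and the part of level in this contrast was not tested. The 4 genes whose interval reached past 2-fold were POLR1H, POLR1G, NOP2 and PPAN. Each of these shares exonic bases with other genes, 24.5%, 45.1%, 54.4% and 59.8%, and the strand setting of the counting is not given. Over 20% was shared in 13 of the 67 genes. Among them were IMP3 (59.3%) and LTV1 (34.8%), whose intervals stayed within 2-fold. The part of overlap in the width of the intervals was not tested. NOP2, a 28S rRNA methyltransferase, had 24, 39, 47 and 56 counts, and PPAN, a 60S factor that also forms a read-through with P2RY11, had 68, 44, 82 and 111, in the order control 1 and 2, then Fer knockdown label 1 and 2. Their log2 fold changes were 0.49 ± 0.35 and 0.55 ± 0.30 (SE, adjusted p = 0.518 and 0.380 in edgeR). In all, 40 of the 67 genes had groups that did not overlap (59.7%, against 49.2% of all genes), 15 with the Fer knockdown label above (25.8% of all genes) and 25 below (23.4% of all genes).

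**Figure D2:**
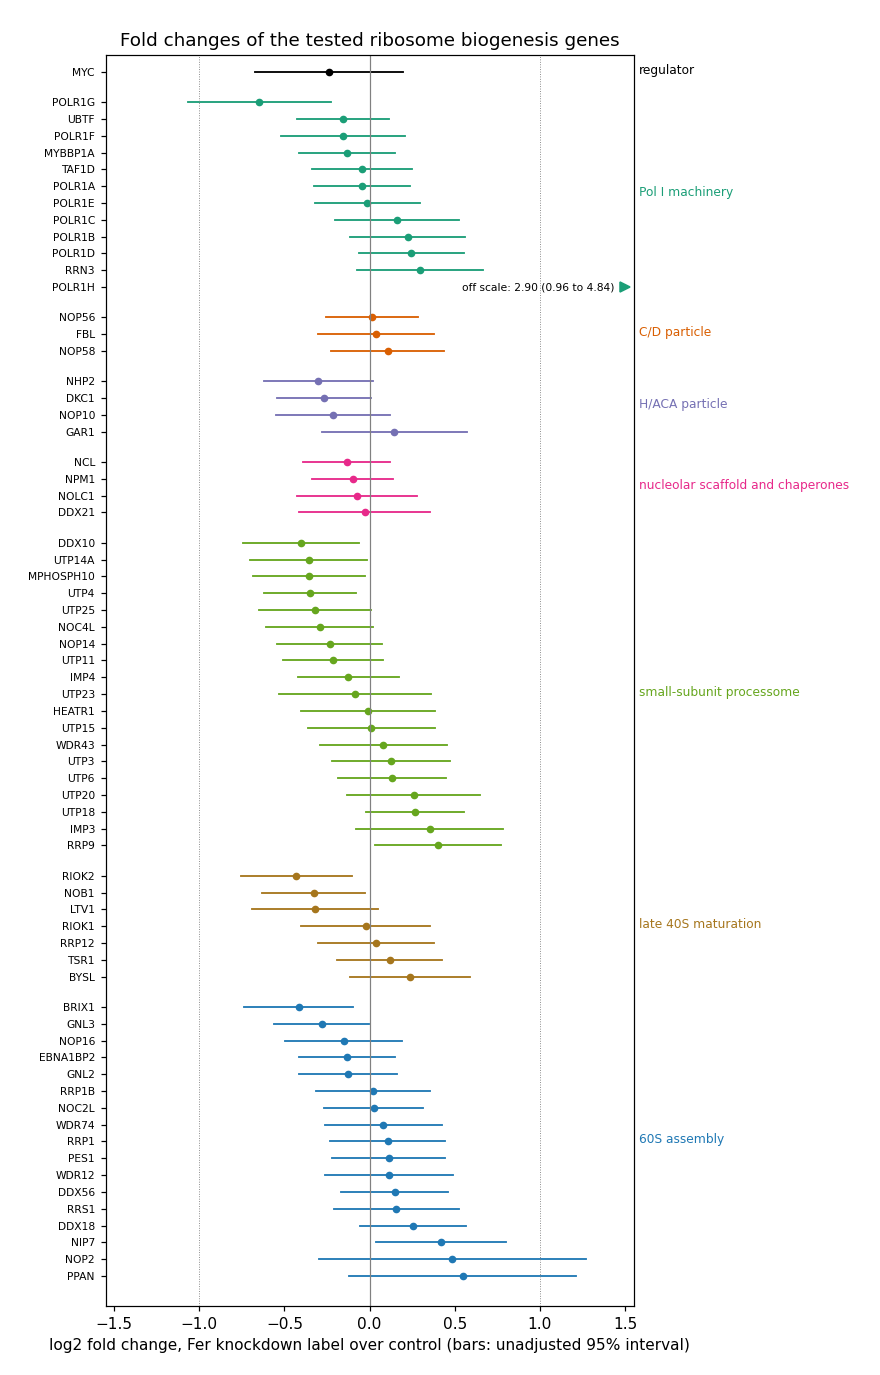
Log2 fold change (points) with unadjusted 95% interval (bars) for the 67 tested genes, grouped and coloured by role, with dotted lines at a 2-fold change. The bars of 63 genes stay between the dotted lines, and POLR1H, at 2.90, is drawn as an arrow.

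MYC, a transcription factor known to activate many of these genes, did not pass the test. It was at 25.5 and 39.1 CPM in control, against 27.8 and 26.9 under the Fer knockdown label. Control 2 was the high library, and control 1 lay below both libraries labelled Fer knockdown, so the groups overlapped. The means were 32.3 ± 9.63 and 27.4 ± 0.612 CPM (SD, n = 2 each), with a log2 fold change of -0.24 ± 0.19 (SE, edgeR adjusted p = 0.569) and a 95% interval of -0.68 to 0.19. The sign rests on the controls: without control 1 the value was -0.52, and without control 2 it was 0.08. Of 14 tested genes of the MYC network, a list of relatives, partners and regulators of MYC, edgeR, DESeq2 and limma-voom called 0. The list's median was -0.05. The closest were MYCBP2, a ubiquitin ligase that binds MYC, at 0.46 (edgeR adjusted p = 0.176), and MNT, a MYC antagonist, at -0.21 (edgeR adjusted p = 0.479). Of 24 known MYC targets outside the nucleolus edgeR called 0, DESeq2 5 and limma-voom 1 (0.646%, 3.78% and 1.16% of all genes). Their median was 0.05, with a range from -0.60 to 1.11. The mitochondrial chaperone HSPE1 was at 13.2 and 9.45 against 20.4 and 28.4 CPM (control against Fer knockdown label), with a log2 fold change of 1.11 and an adjusted p of 0.0549 in edgeR, 0.00068 in DESeq2 and 0.0468 in limma-voom. The peroxidase PRDX3 was at 0.51, with an adjusted p of 0.0824 in edgeR and 0.0191 in DESeq2. The other 3 calls of DESeq2, named after their values were seen, were ODC1, of polyamine synthesis, and TFRC, the transferrin receptor, above 0, and PTMA, or prothymosin alpha, below 0.

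Of the 12 genes of the RNA polymerase I machinery 0 passed the test, with a median log2 fold change of -0.03 (0.14 with library totals alone, -0.0080 without control 1, -0.042 without control 2 and 0.013 without replicate 1 of the Fer knockdown label), and POLR1G and POLR1H lay farthest from 0. POLR1A, the largest subunit and the longest gene of the set, was at 81.2 and 78.4 CPM in control, against 74.5 and 80.3 under the Fer knockdown label. The fold change of POLR1A was -0.04 ± 0.13 (SE, edgeR adjusted p = 0.897). POLR1B, its partner in the catalytic centre, was at 18.0 and 20.3 against 22.9 and 21.9 CPM (control against Fer knockdown label), with both controls below (log2 fold change 0.22 ± 0.15 SE, edgeR adjusted p = 0.485). POLR1C and POLR1D, which RNA polymerase III also uses, were at 0.16 and 0.25 (edgeR adjusted p = 0.655 and 0.392), and POLR1E and POLR1F at -0.01 and -0.15 (edgeR adjusted p = 0.976 and 0.673). Per length, POLR1E had the highest mean level of the 8 genes, 12.1 RPKM (counts scaled by gene length and by depth), then POLR1D, POLR1A and POLR1C at 5.98, 5.81 and 4.84, then POLR1F, POLR1G and POLR1B at 3.97, 2.49 and 2.31, and POLR1H was at 0.281.

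POLR1G, which helps the polymerase reach its promoter, had the lowest fold change of the 67 genes. It was at 9.93 and 9.55 CPM in control, against 5.99 and 6.44 under the Fer knockdown label. The groups did not overlap, and each pair of replicates lay close together, with means of 9.74 ± 0.271 and 6.21 ± 0.318 CPM (SD, n = 2 each). On the log2 scale the difference was -0.65 ± 0.19 (SE, edgeR adjusted p = 0.124), with a 95% interval of -1.06 to -0.23. Its exons overlap those of ERCC1 and PPP1R13L. POLR1H, a small zinc-binding subunit, had 4 and 6 counts in control and 72 and 13 in the libraries labelled Fer knockdown. Replicate 1 of the Fer knockdown label carried most of these counts. The log2 fold change was 2.90 ± 0.87 (SE, edgeR adjusted p = 0.136), but 1.03 without that library and 3.71 without replicate 2 of the same label. Its exons overlap the non-coding gene ZNRD1ASP.

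Of the factors that bring the polymerase to ribosomal DNA or regulate its use, RRN3 lay above 0 and the other three below, and none of these 4 passed in edgeR, DESeq2 or limma-voom. UBTF, which holds ribosomal DNA open, was at 136 and 132 against 116 and 124 CPM (control against Fer knockdown label) with a log2 fold change of -0.16 ± 0.12 (SE, edgeR adjusted p = 0.547). RRN3, the initiation factor that links the polymerase to its promoter complex, was at 18.6 and 23.4 against 27.6 and 24.1 CPM, with both controls below and a log2 fold change of 0.30 (edgeR adjusted p = 0.393), and TAF1D, a subunit of that complex, at -0.05 (edgeR adjusted p = 0.897). MYBBP1A, a nucleolar regulator of ribosomal RNA synthesis, was at -0.13 (edgeR adjusted p = 0.639). Among 11 tested partners of polymerase I from a separate list, edgeR and limma-voom called 0 (0.646% and 1.16% of all genes). Their median was -0.01, and DESeq2 called TBP (adjusted p = 0.0497, with 3.78% of all genes called). TBP, the TATA-binding protein shared by all polymerases, was at 26.6 and 28.0 against 18.7 and 18.5 CPM (log2 fold change -0.56 ± 0.14 SE, edgeR adjusted p = 0.0994), and TTF1, the termination factor, at 13.9 and 13.8 against 19.2 and 20.3 CPM (log2 fold change 0.51 ± 0.15 SE, edgeR adjusted p = 0.136). The groups did not overlap for either, and the differences have opposite signs.

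The C/D proteins, which methylate ribose in ribosomal RNA, had fold changes from 0.02 to 0.11 and a median of 0.04 (0.20 with library totals alone, 0.12 without control 1 and -0.11 without control 2), and 0 of 3 passed. FBL, the methyltransferase fibrillarin, was at 225 and 166 CPM in control, against 192 and 208 under the Fer knockdown label. Both libraries labelled Fer knockdown lay between the controls. Its log2 fold change was 0.04 ± 0.15 (SE, edgeR adjusted p = 0.935). It turned sign with the control used, 0.27 without control 1 and -0.19 without control 2. The core proteins NOP56, at 272 and 235 against 257 and 257 CPM (control against Fer knockdown label), and NOP58, at 36.2 and 43.1 against 40.03 and 45.4 CPM, also overlapped. Their log2 fold changes were 0.02 and 0.11 (edgeR adjusted p = 0.965 and 0.760). Small nucleolar RNAs and a microRNA cover 8.74% of the exonic bases of NOP56. Per length, FBL, NOP56 and NOP58 had mean levels of 92.4, 51.6 and 12.6 RPKM.

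The H/ACA proteins, which convert uridine to pseudouridine, had 3 of 4 fold changes below 0, and 0 of 4 passed. DKC1, the pseudouridine synthase dyskerin, was at 91.0 and 95.5 CPM in control, against 76.8 and 77.97 under the Fer knockdown label. The groups did not overlap (log2 fold change -0.27 ± 0.12 SE, edgeR adjusted p = 0.292). NHP2 was at 78.2 and 63.0 against 58.4 and 56.1 CPM (control against Fer knockdown label), again without overlap (log2 fold change -0.30 ± 0.14 SE, edgeR adjusted p = 0.313), while exons of RMND5B cover 27.4% of it. NOP10, the shortest gene of the set, was at 115 and 87.9 against 86.1 and 89.3 CPM, where control 1 was high and control 2 lay between the other libraries (log2 fold change -0.21 ± 0.15 SE, edgeR adjusted p = 0.506). GAR1 was at 25.6 and 17.7 against 22.3 and 25.5 CPM, with the controls the highest and the lowest of the 4 libraries (log2 fold change 0.14 ± 0.19 SE, edgeR adjusted p = 0.749). The median of the 4 was -0.24, but -0.076 without control 1, -0.34 without control 2 and -0.076 with library totals alone. Per length, NOP10 stood far above its partners, at 187 RPKM against 44.6 for NHP2, 20.3 for DKC1 and 11.6 for GAR1.

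**Figure D3:**
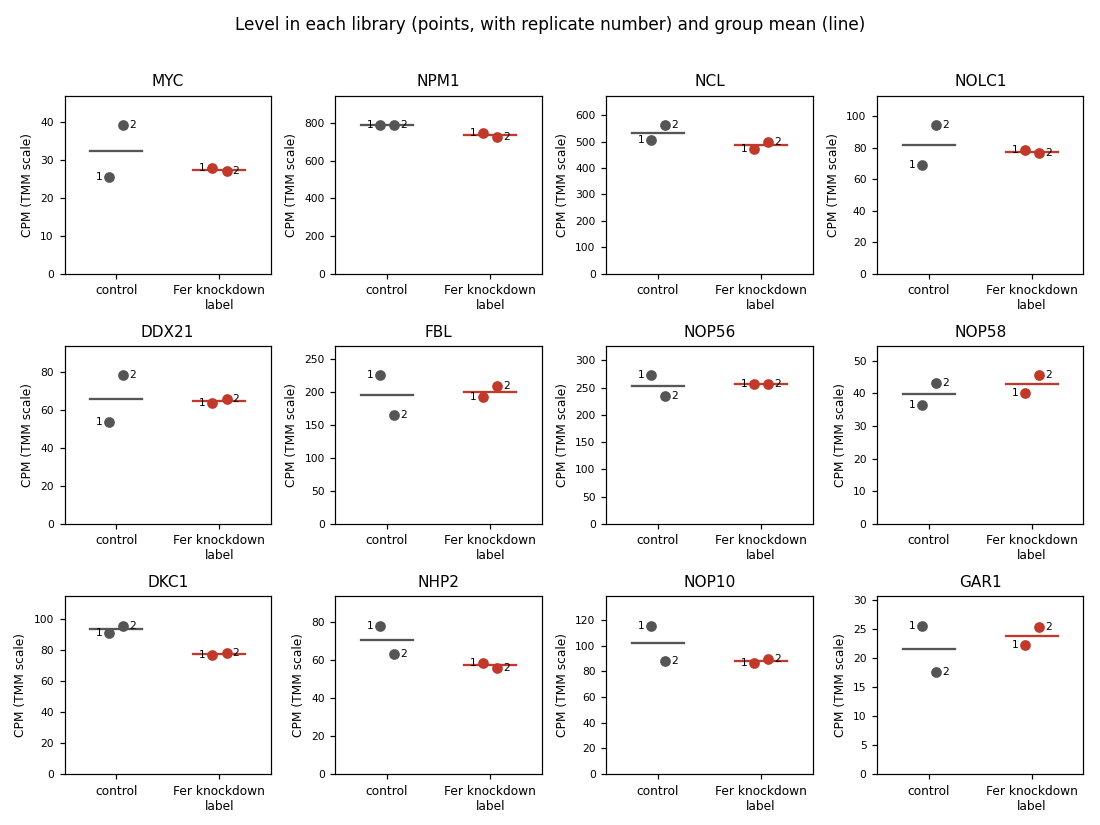
CPM on the TMM scale in each library (points, marked with the replicate number) and group mean (line) for MYC, 4 nucleolar scaffold and chaperone genes, 3 C/D genes and 4 H/ACA genes, each axis starting at 0. The control points lie farther apart than the points of the Fer knockdown label in each gene shown except NPM1.

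The 4 nucleolar scaffold and chaperone genes had fold changes below 0, with a median of -0.09 (0.077 with library totals alone, -0.25 without control 1 and 0.034 without control 2), and 0 passed. NPM1, the nucleophosmin that shapes the outer nucleolus, had the highest level of the set, 199 RPKM, and was at 789 and 788 CPM in control, against 747 and 725 under the Fer knockdown label. The controls lay together above the other libraries (log2 fold change -0.10 ± 0.11 SE, edgeR adjusted p = 0.679, 95% interval -0.34 to 0.14). NCL, or nucleolin, was at 505 and 563 against 474 and 498 CPM (control against Fer knockdown label), also without overlap (log2 fold change -0.14 ± 0.12 SE, edgeR adjusted p = 0.590). The chaperone NOLC1 and the helicase DDX21 were at 68.8 and 94.3 against 78.3 and 76.6 CPM and 53.8 and 78.03 against 63.6 and 65.6 CPM. In both, control 1 was the lowest library and control 2 the highest, as in MYC, and the fold changes were -0.07 and -0.03 (edgeR adjusted p = 0.858 and 0.953). Level per length put NPM1, NOP10, FBL, NCL, NOP56 and NHP2 at the top of the set, and 55 of the 67 genes (82.1%) lay above the median of all tested genes, 3.58 RPKM.

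The small-subunit processome, which assembles on the nascent precursor around the U3 small nucleolar RNA, had values on both sides of 0. Of 19 tested genes 0 passed, with 8 positive, 11 negative and a median of -0.09, which was 0.077 with library totals alone, -0.19 without control 1 and 0.030 without control 2. UTP4, of the complex that starts processome assembly, was at 116 and 112 CPM in control, against 89.2 and 90.0 under the Fer knockdown label. Both controls lay above (log2 fold change -0.35 ± 0.12 SE, edgeR adjusted p = 0.178). DDX10, an RNA helicase, was at 23.2 and 27.2 against 19.1 and 19.0 CPM (control against Fer knockdown label), also with both controls above (log2 fold change -0.40 ± 0.15 SE, edgeR adjusted p = 0.213). RRP9, which binds the U3 RNA, was at 37.2 and 27.4 against 43.9 and 41.5 CPM, with both controls below (log2 fold change 0.40 ± 0.17 SE, edgeR adjusted p = 0.246). The U3-associated proteins did not share a sign: MPHOSPH10 was at -0.36, IMP4 at -0.13 and IMP3 at 0.35 (edgeR adjusted p = 0.247, 0.673 and 0.382), while other genes cover 59.3% of the exons of IMP3. Among the other UTP genes, which encode further processome components, UTP14A and UTP25 were at -0.36 and -0.32, UTP18 and UTP20 at 0.27 and 0.26, and UTP15 at 0.01. HEATR1, the large scaffold that also acts in ribosomal DNA transcription, was at -0.01 ± 0.18 (SE, edgeR adjusted p = 0.987).

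Late 40S factors act as the small subunit leaves the nucleus and its RNA gets its last cut. Of 7 genes 0 passed, with a median of -0.02 (0.14 with library totals alone, -0.18 without control 1 and -0.14 without control 2). RIOK2, an atypical kinase that proofreads the pre-40S particle, was at 23.7 and 23.1 CPM in control, against 17.7 and 17.1 under the Fer knockdown label. The replicates of each group lay close together and the groups did not overlap (log2 fold change -0.43 ± 0.15 SE, edgeR adjusted p = 0.174). NOB1, the nuclease that makes the final cut in 18S RNA, was at 40.8 and 38.4 against 32.1 and 31.1 CPM (control against Fer knockdown label), and LTV1, which is released before that cut, at 14.8 and 15.0 against 11.1 and 12.8 CPM. Both controls were above in each (log2 fold changes -0.33 ± 0.14 SE and -0.32 ± 0.17 SE, edgeR adjusted p = 0.248 and 0.351). Exons of other genes cover 20.2% of NOB1 and 34.8% of LTV1. BYSL, a pre-40S factor, at 0.24 (edgeR adjusted p = 0.474), and TSR1, which resembles a GTPase, at 0.12 (edgeR adjusted p = 0.714), lay on the other side of 0, and RIOK1, the kinase related to RIOK2, was at -0.02 (edgeR adjusted p = 0.964).

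Genes of 60S assembly had a median of 0.11 (0.27 with library totals alone, 0.14 without control 1 and -0.09 without control 2), with 12 positive, 5 negative and 0 of 17 past the test. BRIX1, which helps fold the large-subunit RNA, was at 29.5 and 32.4 CPM in control, against 23.2 and 23.2 under the Fer knockdown label. The controls were above and the groups did not overlap (log2 fold change -0.42 ± 0.14 SE, edgeR adjusted p = 0.177). GNL3, the GTP-binding nucleostemin, was at 78.9 and 76.7 against 64.4 and 63.5 CPM (control against Fer knockdown label), with both controls above (log2 fold change -0.28 ± 0.12 SE, edgeR adjusted p = 0.274). NIP7, which acts in precursor RNA processing, was at 20.3 and 17.2 against 22.3 and 27.9 CPM, with both controls below (log2 fold change 0.42 ± 0.17 SE, edgeR adjusted p = 0.240), while exons of COG8 cover 20.2% of it. PES1 and WDR12, partners in the PeBoW complex, were at 0.11 and 0.11 (edgeR adjusted p = 0.748 and 0.777). The paralogues RRP1 and RRP1B were at 0.11 and 0.02 (edgeR adjusted p = 0.772 and 0.969).

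Other genes of the pathway were taken from lists outside the 68, and edgeR called 0 in each, against 0.646% of all genes. Of 39 further small-subunit factors, with a median of 0.11, DESeq2 and limma-voom also called 0. Of 51 further large-subunit factors, with a median of -0.03, DESeq2 called SBDS and PA2G4 (adjusted p = 0.0190 and 0.0277) and limma-voom 0. Over all genes DESeq2 called 3.78% and limma-voom 1.16%. EMG1, a methyltransferase of 18S RNA, was at 26.8 and 19.3 against 34.8 and 35.9 CPM (control against Fer knockdown label), a log2 fold change of 0.62 ± 0.17 (SE, edgeR adjusted p = 0.117). WDR75 of the processome was at 30.6 and 36.1 against 24.5 and 24.4 CPM, a log2 fold change of -0.45 ± 0.15 (SE, edgeR adjusted p = 0.168). SBDS, which releases the anti-joining factor from the 60S subunit, was at 65.6 and 75.6 against 49.1 and 47.6 CPM, a log2 fold change of -0.55 ± 0.14 (SE, edgeR adjusted p = 0.0893), and PA2G4, a protein of the nucleolus that binds ribosomes, was at -0.46 (edgeR adjusted p = 0.0950). Of 18 exosome and 5.8S processing genes and 22 genes of RNA polymerase III, which makes 5S RNA, the 3 tools called 0 in each, with medians of 0.04 and 0.03. EXOSC7 of the exosome ring was at 0.61 and the nuclease EXOSC10 at -0.31 (edgeR adjusted p = 0.112 and 0.242), and POLR3K and BRF2 were at 0.53 and 0.51 (edgeR adjusted p = 0.107 and 0.248). Of 15 p53 targets, which are known to respond to stalled ribosome production, the 3 tools called 0, with a median of 0.20. In 8 of the 15 both libraries labelled Fer knockdown lay above both controls (53.3%, against 25.8% of all genes). In 1 they lay below (6.67%, against 23.4%). BBC3 and GADD45A were at 0.55 and 0.41 (edgeR adjusted p = 0.124 and 0.116). Leaving out control 2 moved BBC3 to 0.32, and leaving out control 1 moved it to 0.80.

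The controls lay farther from each other in these genes than did the pair with the Fer knockdown label. The median absolute difference in log2 CPM was 0.23 between the controls and 0.07 between the other libraries, against 0.26 and 0.12 over all tested genes, and the controls lay farther apart in 53 of the 67 genes (79.1%, against 69.5%). In 16 of the 67 genes both libraries labelled Fer knockdown fell between the controls (23.9%, against 21.6% of all genes). Control 1 was the higher control in 38 genes and control 2 in 29. The difference of control 1 minus control 2 ran from -0.62 in MYC to 0.69 in PPAN. Long genes tended to be lower in control 1: across the 67 genes the difference had a Pearson r of -0.37 and a Spearman rho of -0.35 with log2 length, and over all tested genes -0.26 and -0.34. These correlations are across genes of the same libraries, which are not independent replicates. The fold change of the Fer knockdown label over control had an r of 0.003 and a rho of 0.02 with log2 length in the 67 genes, and -0.09 and -0.08 over all tested genes.

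**Figure D4:**
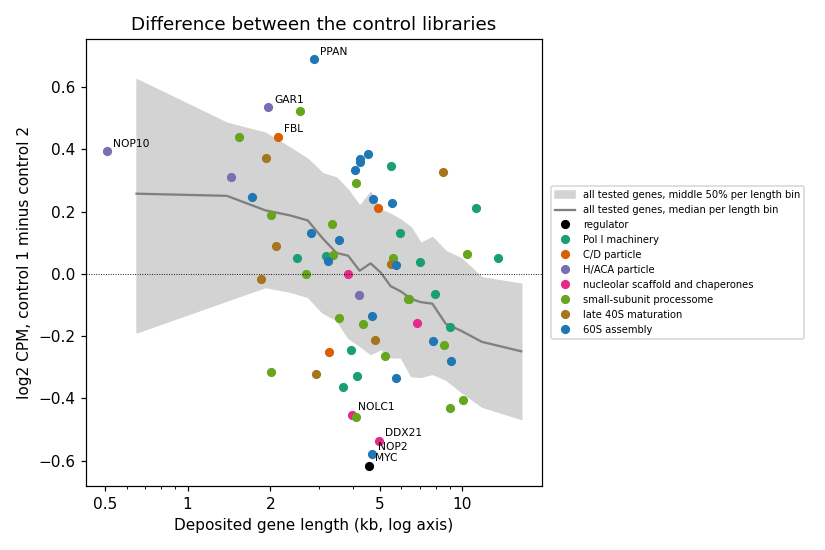
Log2 CPM of control 1 minus control 2 (vertical axis) against deposited gene length in kb (log axis) for the 67 tested genes, coloured by role, with the median (grey line) and middle 50% (grey band) of all tested genes in bins of length. MYC (-0.62) and PPAN (0.69) are the lowest and highest of the 67 genes, and NOP10, the shortest, lies at 0.39.

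With 1 control left out, the test called many of these genes and many others. Without control 1 it called 29 of the 67 genes (43.3%) against 29.5% of all genes, and without control 2 it called 18 (26.9%) against 20.6%. Both fits share the libraries labelled Fer knockdown, which lie close together, and the lone control is assumed to vary as they do. The controls in fact lay farther apart than that pair in 79.1% of the 67 genes. These fits thus understate the spread, and a call in both is no replication. The genes called in both fits were 9 of the 67 (13.4%), against 11.4% of the 15857 genes tested in both, and the sign differed between the fits for 1 of the 9 and for 114 of 1809 genes in all. GNL3, BRIX1, RIOK2, UTP4, NOB1, POLR1G and DKC1 were below 0 and called in both fits, POLR1H was above 0 and called in both, and FBL was called in both with opposite signs. For RIOK2 the log2 fold changes were -0.42 without control 1 and -0.47 without control 2, and for UTP4 -0.33 and -0.40.

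The share of all counts taken by the 68 genes depended on the denominator. They made up 0.433% and 0.425% of the control libraries (95% Wilson intervals 0.430 to 0.436 and 0.422 to 0.428). Under the Fer knockdown label they made up 0.461% and 0.462% (0.458 to 0.464 and 0.460 to 0.465). These intervals cover counting error only. The shares of the Fer knockdown label were above both controls. Of counts outside the mitochondrial chromosome the same genes made up 0.521% and 0.528% in control and 0.510% and 0.510% in the libraries labelled Fer knockdown, which puts the latter below both controls. With 2 libraries against 2, an exact two-sided permutation test cannot go below p = 0.333, which is the value for both shares. The mitochondrial share was lower in the same libraries, at 9.50 ± 0.175% against 18.2 ± 1.78% (SD, n = 2 each).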

How the data were processed

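Polyadenylated RNA of 4 BEAS-2B libraries was sequenced. The authors deposited raw read counts per gene with gene lengths, per the file headers, and HISAT2, featureCounts, DESeq2 and the builds hg19 and mm10 are named without versions or roles, per the submitters' processing notes. The strand setting is not given in the sources used here. Of 39635 entries, 1 held no values. Columns were matched to libraries by name, and the column of replicate 1 of the Fer knockdown label carries a shortened name. The members and lists were chosen with earlier results of these data known.

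Counts were filtered with filterByExpr (15336 genes left), scaled by TMM factors (0.940, 0.949, 1.06 and 1.06) and tested with edgeR 4.0.16 in R 4.3.3 (quasi-likelihood test, two-sided, no block, 2 residual degrees of freedom, Benjamini-Hochberg over all tested genes, threshold 0.05). Standard errors were derived from fold changes and F values. RPKM uses the deposited length, which spans all exons and so understates genes with many isoforms. Exon overlaps, on either strand, come from GENCODE 29, which matched 39581 identifiers. They were computed for the members only, and not for genes of the further lists. The test was run on simulated counts first. Genes named were FER, MYC, the 3 smallest p per role, all POLR1, C/D, H/ACA and scaffold genes, the extremes of fold change (mean of at least 5 CPM) and of length, and the 2 smallest p of each further list. Other members are named after their values were seen. Alternatives were a replicate block, 3 other scalings, the mitochondrial chromosome left out, DESeq2 1.42.0, limma-voom (limma 3.58.1), 2 other filters, a length trend removed (lowess, span 0.3) and each library left out.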

Additional observations from a re-analysis of the deposited data

How the results depend on the processing

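MYC had no call in 13 of the 14 alternatives, and the count of called ribosome biogenesis genes was 0 in 9 of them. The exception for MYC was the fit without control 1, at -0.52, which rests on a lone control. The replicate block called 990 genes in all and 2 of these 67 (POLR1H at 2.61 and POLR1G at -0.65, edgeR adjusted p = 0.00171 and 0.0487). Equal replicate numbers are not said to pair libraries. The deviations of the libraries numbered 1 correlated at 0.037 over genes. With 2 libraries per group, this correlation cannot show whether libraries were handled in pairs. No filter on low counts called 993 genes and 1 of the set, POLR1H. All genes called numbered 192 with upper-quartile factors, 580 in DESeq2, 178 in limma-voom and 687 with the length trend removed. Library totals alone called 443 (396 higher, 47 lower, against 43 and 56) and moved the median of the set to 0.15 and that of all genes to 0.18. The median of the set was -0.041 with a filter of 5 CPM and -0.032 with the length trend removed. With each library left out, calls ran from 56 to 4734 over all genes and from 0 to 29 in the set, the median of the set from -0.078 to -0.0066, MYC from -0.52 to 0.078, FER from -0.16 to 0.19, and FBL from -0.19 to 0.27. Of the 52 named genes, further lists included, 0 were called in the reported test. Leaving out either control called more of them than any other setting, in fits that rest on a lone control. Among alternatives that kept every library, 12 were called with the block and 12 with no filter. The length trend removed called 10, library totals 8, DESeq2 7, limma-voom and upper-quartile factors 2 each, and DESeq2 size factors 1. Library totals alone changed the sign of 7. Leaving out control 1 changed the sign of 4, and leaving out control 2 that of 7. Without replicate 1 or 2 of the Fer knockdown label, 3 and 2 changed sign. POLR1H, NOP2 and PPAN had the fewest counts of the tested genes of the set. The cause of these changes was not tested.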
